A study of Arabidopsis thaliana with 10 samples.

Results

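The data described here were the step between 2 doses of dexamethasone (Dex) in Arabidopsis thaliana, P1-12 (+0.25 μM Dex) against P1-12 (+0.025 μM Dex), across all genes. Each dose had 2 RNA-seq libraries, which made 4 of the 10 libraries of the series, and they were taken by their treatment labels alone. P1-12 was a Col-0 line with the genotype pTA7002-Dexp:KRAB U6-26p:P1: a Dex-inducible promoter drove dCas9-KRAB, a nuclease-dead Cas9 joined to a transcriptional repressor domain, and the U6-26 promoter drove P1, a single-guide RNA directed to the MORF2 locus. RNA came from whole seedlings grown for 8 d in long days on sucrose-containing medium with Dex. P1-12 (+DMSO), which had 0.1% DMSO and no Dex, gave a baseline for side values, and the KRAB line, with dCas9-KRAB and no guide, gave the values of Dex at 0.25 μM against DMSO without P1. P1-12 was a single transgenic line, and the Dex dose and the amount of MORF2 transcript changed together in this step, so that their effects cannot be told apart from these 4 libraries. The growth description in the labels named 0.025 μM for both Dex doses, in conflict with the treatment labels, and the treatment labels were followed. The study's methods call the 2 replicates of a group biological, while no label said that they came from separate cultures, and the p-values measured the spread between these libraries.

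MORF2 belongs to the MORF proteins of plastids and mitochondria, which bind pentatricopeptide repeat proteins and are needed for C-to-U editing of organelle transcripts. Plastids in trouble also change the expression of nuclear genes, a flow of information called retrograde signalling: nuclear genes for photosynthesis are known to be reduced when plastid gene expression or pigment synthesis is impaired, and stress genes are often raised. A CRISPR interference line with a Dex-inducible repressor allows the level of a target transcript to be lowered in steps, and the comparison of the higher with the lower dose asks what the second step adds. Because whole seedlings were sampled, fewer cells of a type and less RNA per cell cannot be told apart in any of the results.

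The libraries at 0.25 μM held 9139050 and 10236033 reads counted in genes, against 10366360 and 10851775 at 0.025 μM, within the 9139050 to 40544617 of the series. Values are given as CPM, reads of a gene scaled to a common library size, after normalization for library composition, always for replicate 1 and then replicate 2. Of 33602 loci, 16721 had more than 2 CPM in at least 9 of the 10 libraries and were tested. Log2FC is the log2 of the level at 0.25 μM over that at 0.025 μM, with its standard error (SE), from edgeR's quasi-likelihood test with Benjamini-Hochberg adjustment over all tested genes. Mitochondrion-encoded loci took 0.328% and 0.255% of the reads at 0.25 μM, against 0.0848% and 0.0778% at 0.025 μM, and plastid-encoded loci took 0.799% and 0.609%, against 0.957% and 0.787%. Most of the mitochondrial reads came from the loci ATMG00020 and ATMG01390, described below.

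The targeted gene, MORF2 (AT2G33430), was lower in both libraries of the higher dose. It measured 51.7 and 55.5 CPM at 0.25 μM, against 108 and 105.4 CPM at 0.025 μM (Log2FC -0.99 ± 0.07, edgeR adjusted p = 1.18e-07). The replicates of a dose lay within a few CPM of each other and the doses did not overlap. The step of the same gene between DMSO and 0.025 μM was -0.10 with an adjusted p of 0.469, and the second step minus the first was -0.89 (edgeR adjusted p = 2.42e-04). The P1 protospacer, the 20 bases the guide pairs with, is shown because it directs the repressor in all P1-12 libraries. It matched the plus strand of chr2:14162303-14162322 in RefSeq's TAIR10.1 assembly, inside the annotated span of the gene AT2G33420. MORF2 had no entry in that annotation, so its distance to the site was not measured. The paper draws P1 on its map of the MORF2 locus. The capitals mark the adjacent PAM.
P1 protospacer: gaactggtaagaagtaagaaAGG

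Among the other MORF genes, MORF9, whose protein also acts in plastids, moved most like MORF2. MORF9 measured 54.9 and 53.1 CPM at 0.25 μM, against 104 and 101.2 CPM at 0.025 μM (Log2FC -0.92 ± 0.07, edgeR adjusted p = 1.72e-07), again with no overlap of the doses. MORF5 fell less, with 35.4 and 31.4 CPM at 0.25 μM, against 48.3 and 48.3 CPM at 0.025 μM (Log2FC -0.53 ± 0.09, edgeR adjusted p = 2.28e-04). MORF1 passed the test with a Log2FC of -0.35 ± 0.09 (edgeR adjusted p = 0.00608), but the call was lost without replicate 1 at 0.025 μM (-0.31) or without replicate 2 at 0.25 μM (-0.32). MORF3 (-0.29 ± 0.11, edgeR adjusted p = 0.0469) and MORF6 (-0.28 ± 0.11, edgeR adjusted p = 0.0442) passed narrowly. The call of MORF3 was lost under every alternative run, the replicate block included (-0.29), with Log2FC between -0.34 and -0.22, and that of MORF6 when any of the 4 libraries was left out (-0.34 to -0.22) and under several other alternatives. MORF8, whose protein is found in both organelles, measured 178 and 167 CPM at 0.25 μM, against 172 and 166 CPM at 0.025 μM and did not pass (0.04, edgeR adjusted p = 0.71). MORF4 did not pass either (0.34 ± 0.16, edgeR adjusted p = 0.0887), although it did without replicate 2 at 0.025 μM (0.53) or replicate 1 at 0.25 μM (0.51). MORF7 was too low to be tested.

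Genes beside MORF2 on chromosome 2 were measured as well. PRPL28 (AT2G33450), which encodes a subunit of the plastid ribosome, measured 64.0 and 58.4 CPM at 0.25 μM, against 176 and 162 CPM at 0.025 μM (Log2FC -1.46 ± 0.09, edgeR adjusted p = 1.39e-08). AT2G33400, annotated as an FK506-binding nuclear-like protein, measured 5.72 and 5.00 CPM at 0.25 μM, against 19.4 and 17.56 CPM at 0.025 μM (Log2FC -1.78 ± 0.14, edgeR adjusted p = 2.06e-07). Both fell with no overlap of the doses. AT2G33410, between AT2G33400 and the guide site, had a Log2FC of 0.18 ± 0.07 and did not pass (edgeR adjusted p = 0.0591), although it did under several alternatives, with Log2FC of 0.19 to 0.26. AT2G33390 (0.37) and AT2G33440 (0.37) passed, but the first lost its call without replicate 2 at 0.025 μM (0.31) or replicate 1 at 0.25 μM (0.29), and the second without replicate 1 of either dose, at 0.025 μM (0.30) or at 0.25 μM (0.28). AT2G33420, whose annotated span in TAIR10.1 includes the guide site, had no more than 1 read in any of the 4 libraries, and AT2G33460 was below the filter.

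Across all tested genes, 516 were significantly differentially expressed genes (SDEGs) that were higher at 0.25 μM, which is 3.09% of those tested, and 883 were SDEGs that were lower, which is 5.28%. An SDEG had to change at least 2-fold, a Log2FC of at least 1 in size, with an adjusted p below 0.0001. The count of lower SDEGs was 578 when replicate 1 at 0.025 μM was left out, a change of more than 1.5 times, while the other 3 libraries left it between 600 and 766. At the looser level of an adjusted p below 0.05, with no minimum change, 4035 genes were higher (24.1% of those tested) and 4417 were lower (26.4%). These 2 shares are the background for every gene group below, where a gene is said to rise or fall if its adjusted p was below 0.05.

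The largest increases among SDEGs of at least 5 CPM on average belonged to genes of cell walls, chromatin and hormone metabolism and to several without a known function. AT2G05510, annotated as a glycine-rich protein, measured 3520.5 and 3324 CPM at 0.25 μM, against 191 and 158 CPM at 0.025 μM (Log2FC 4.302 ± 0.30, edgeR adjusted p = 6.20e-08). AT2G25510, an uncharacterized protein, measured 155 and 173 CPM at 0.25 μM, against 9.68 and 10.2 CPM at 0.025 μM (Log2FC 4.05 ± 0.37, edgeR adjusted p = 7.07e-07). HIS1-3, a linker histone known to respond to drought and shade, measured 80.3 and 66.8 CPM at 0.25 μM, against 7.53 and 8.55 CPM at 0.025 μM (Log2FC 3.19 ± 0.14, edgeR adjusted p = 1.37e-09). All of these genes were selected for a large change with no overlap of the doses, so their separation is a description. NIT2, a nitrilase able to release auxin from indole-3-acetonitrile, measured 298 and 283 CPM at 0.25 μM, against 35.1 and 35.6 CPM at 0.025 μM (Log2FC 3.04 ± 0.08, edgeR adjusted p = 2.00e-11). CYP707A1, which breaks down abscisic acid, measured 45.6 and 47.3 CPM at 0.25 μM, against 6.94 and 5.37 CPM at 0.025 μM (Log2FC 2.93 ± 0.16, edgeR adjusted p = 5.86e-09). SHI, a regulator of auxin synthesis in young organs, measured 37.3 and 31.3 CPM at 0.25 μM, against 4.203 and 3.82 CPM at 0.025 μM (Log2FC 3.10 ± 0.20). These 3 genes act in the metabolism or control of hormones. APK4, an adenosine-5'-phosphosulfate kinase of sulfate metabolism, had a Log2FC of 3.13 ± 0.17, AT3G22235, annotated as a cysteine-rich stress tolerance protein, of 3.61 ± 0.37, and AT4G39675, uncharacterized, of 3.05 ± 0.18.

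Some of these genes also moved with Dex in the KRAB line, which lacks the guide. From DMSO to 0.25 μM Dex in KRAB, AT2G05510 had a Log2FC of 3.49 (edgeR adjusted p = 9.47e-05), AT3G28540, annotated as a P-loop nucleoside triphosphatase, of 3.12, PP2-A6, a phloem lectin, of 2.44, SNRK2.7, a kinase of osmotic stress, of 1.74, and CYP707A1 of 1.42. Their values in the step between the 2 doses in P1-12 were 4.302, 3.43, 3.13, 3.09 and 2.93. The corresponding KRAB values were -0.01 for SHI, 0.39 for APK4 and -0.21 for AT4G39675, none of which passed. How much of the step in P1-12 came from Dex itself was not tested, since the series has no KRAB library at 0.025 μM.

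The largest decreases were led by genes for the synthesis of aliphatic glucosinolates, the sulfur-rich defense compounds that Brassicales make from methionine. BCAT4, whose aminotransferase starts the chain elongation of methionine, measured 2.91 and 2.59 CPM at 0.25 μM, against 99.9 and 110.2 CPM at 0.025 μM (Log2FC -5.25 ± 0.20, edgeR adjusted p = 6.46e-10). MAM1, which adds the carbons in that elongation, measured 18.0 and 8.98 CPM at 0.25 μM, against 334 and 338 CPM at 0.025 μM (Log2FC -4.65 ± 0.22, edgeR adjusted p = 1.67e-09). CYP83A1, which oxidizes the aldoximes made from the elongated methionine, measured 9.25 and 5.37 CPM at 0.25 μM, against 151 and 157 CPM at 0.025 μM (Log2FC -4.40 ± 0.18, edgeR adjusted p = 7.99e-10). Every library at 0.25 μM was more than 10 times below every library at 0.025 μM in these genes. IPMI2, IPMI1 and IPMDH1, isomerase subunits and the dehydrogenase of the same elongation cycle, had Log2FC of -4.79 ± 0.22, -4.07 ± 0.27 and -3.98 ± 0.15. GSTU20, a glutathione transferase co-expressed with this pathway, measured 19.2 and 11.4 CPM at 0.25 μM, against 518 and 485 CPM at 0.025 μM (Log2FC -5.04 ± 0.16, edgeR adjusted p = 8.19e-11). Outside the pathway, MLP28, a major latex-like protein, measured 3.12 and 2.78 CPM at 0.25 μM, against 108 and 92.2 CPM at 0.025 μM (Log2FC -5.08 ± 0.14, edgeR adjusted p = 2.17e-11). LOX2, the plastid lipoxygenase at the start of jasmonate synthesis, measured 46.2 and 69.7 CPM at 0.25 μM, against 845 and 756 CPM at 0.025 μM (Log2FC -3.78 ± 0.30, edgeR adjusted p = 1.86e-07). RGF9, a peptide of the root meristem growth factor family, had a Log2FC of -3.97 ± 0.24, and AT2G27402, annotated as a plastid transcriptionally active protein, of -3.74 ± 0.14.

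**Figure D1:**
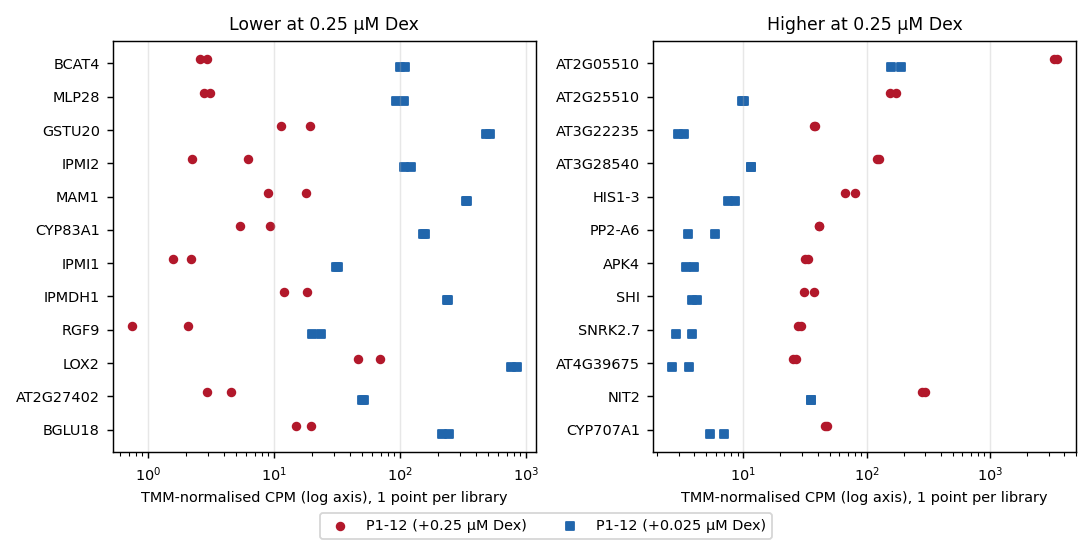
CPM per library on a log axis for the SDEGs with the largest decreases (left panel) and increases (right panel) at 0.25 μM Dex, with red circles for the 2 libraries at 0.25 μM and blue squares for the 2 at 0.025 μM. The genes were chosen for doses that do not overlap, so the gap between colours shows the size of the change, as for BCAT4, with 2.91 and 2.59, against 99.9 and 110.2 CPM.

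BGLU18, a beta-glucosidase of ER bodies, had the largest standard error among these decreases. It measured 15.0 and 19.7 CPM at 0.25 μM, against 246 and 217 CPM at 0.025 μM (Log2FC -3.72 ± 0.55, edgeR adjusted p = 6.77e-05), but 407 and 1540.2 CPM in the 2 P1-12 (+DMSO) libraries, so the spread between replicates of the baseline was larger than that within either Dex dose.

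Among the most abundant SDEGs, the lower ones all belonged to photosynthesis. RBCS1A, a small subunit of Rubisco, measured 4138 and 3839.8 CPM at 0.25 μM, against 10461 and 9403 CPM at 0.025 μM (Log2FC -1.31 ± 0.09, edgeR adjusted p = 4.47e-08). RBCS3B, another small subunit, measured 1176 and 1122 CPM at 0.25 μM, against 4151 and 3443 CPM at 0.025 μM (Log2FC -1.72 ± 0.12, edgeR adjusted p = 5.37e-08). LHCB5, a minor antenna protein of photosystem II, measured 1524 and 1444 CPM at 0.25 μM, against 3769.6 and 3178 CPM at 0.025 μM and LHCA1, of the photosystem I antenna, 1562 and 1464 CPM at 0.25 μM, against 3654 and 3062 CPM at 0.025 μM (Log2FC -1.22 ± 0.10 and -1.14 ± 0.10). All were chosen as SDEGs, so a change of at least 2-fold was set by the choice and the gap between doses is a description. LHCB1.1 and LHCB1.2, nearly identical neighbouring copies whose reads the counting could have split between them, had Log2FC of -1.45 and -1.45 and are uncertain as single genes. The abundant SDEGs that rose were of different kinds. NIA2, the major nitrate reductase, measured 3695 and 3723 CPM at 0.25 μM, against 1605 and 1681 CPM at 0.025 μM (Log2FC 1.18 ± 0.11, edgeR adjusted p = 1.23e-06). GRP-3, a glycine-rich cell wall protein encoded next to AT2G05510, measured 1939.5 and 1841 CPM at 0.25 μM, against 455 and 498 CPM at 0.025 μM (Log2FC 1.99 ± 0.18, edgeR adjusted p = 8.21e-07). AT2G43150, annotated as a proline-rich extensin-like protein, measured 1856 and 1720.0 CPM at 0.25 μM, against 839 and 819 CPM at 0.025 μM (Log2FC 1.11 ± 0.07). The ribosomal RNA locus AT3G41768 and the mitochondrial locus ATMG00020 were also among them and are described with the organelle loci.

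In the groups of photosynthesis genes, nearly every measured member fell. Of 28 tested nuclear genes for photosystem core subunits and electron transport, 28 fell and none rose, with a median Log2FC of -0.95, where the median over all tested genes was -0.005. PSBQ1, an extrinsic subunit of the oxygen-evolving complex, measured 342 and 337 CPM at 0.25 μM, against 1006 and 884 CPM at 0.025 μM (Log2FC -1.47 ± 0.09, edgeR adjusted p = 1.06e-08). PETE2, the main plastocyanin, which carries electrons to photosystem I, measured 609 and 597 CPM at 0.25 μM, against 1648 and 1482 CPM at 0.025 μM (Log2FC -1.37 ± 0.08, edgeR adjusted p = 1.31e-08). PSAH2, a photosystem I subunit that docks the mobile antenna, measured 204 and 207 CPM at 0.25 μM, against 568 and 496 CPM at 0.025 μM (Log2FC -1.37 ± 0.08, edgeR adjusted p = 1.36e-08). The smallest change in the group was that of PSBR (-0.50 ± 0.08). The genes named here were chosen by their changes, so the gap between their doses is a description. The 250 bases before the starts of PETE2 and PSAH2 are shown because they carry the I-box, a sequence known from light-regulated promoters. They are from RefSeq's TAIR10.1 assembly, PETE2 at chr1:7043393-7043642 on the minus strand and PSAH2 at chr1:19454548-19454797 on the plus strand, each written 5′ to 3′ towards the gene, and the capitals mark the I-box letters GATAAG read on either strand.
PETE2: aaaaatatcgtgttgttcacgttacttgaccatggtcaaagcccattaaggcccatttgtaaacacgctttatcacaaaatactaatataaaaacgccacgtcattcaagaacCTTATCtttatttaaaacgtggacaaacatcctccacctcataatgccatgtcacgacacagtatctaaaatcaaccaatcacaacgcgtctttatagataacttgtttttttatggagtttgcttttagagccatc
PSAH2: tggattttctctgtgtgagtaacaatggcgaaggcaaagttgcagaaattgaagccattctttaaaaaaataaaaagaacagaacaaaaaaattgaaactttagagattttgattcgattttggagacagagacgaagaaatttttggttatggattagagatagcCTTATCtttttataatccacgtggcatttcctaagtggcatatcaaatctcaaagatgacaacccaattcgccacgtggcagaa
Those letters were present, on either strand between 250 bases before and 50 after the start, in 15 of the 28 promoters of this group (53.6%), against 14.6% of all 27443 promoters. The G-box CACGTG was present in 35.7% of the group and 7.68% of all promoters. A match is a description of the letters and not of binding.

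Light-harvesting antenna genes gave a similar count, with 20 of 21 falling, none rising and a median Log2FC of -1.09. LHCB2.3, of the major antenna of photosystem II, measured 56.8 and 52.1 CPM at 0.25 μM, against 508 and 359 CPM at 0.025 μM (Log2FC -2.99 ± 0.17, edgeR adjusted p = 8.40e-09). LHCB1.4 (-1.93), LHCA6 (-1.89), a linker between photosystem I and the NDH complex, and LHCB3 (-1.57) followed. LHCB7, a rare member, measured 4.89 and 4.82 CPM at 0.25 μM, against 5.38 and 4.55 CPM at 0.025 μM and did not pass (-0.02 ± 0.21, edgeR adjusted p = 0.934). Of 20 Calvin cycle genes, 19 fell and 1 rose, with a median of -0.83. The largest decreases were those of RBCS2B (-1.83), RBCS3B, RBCS1B (-1.36) and SBPASE (-1.32), sedoheptulose-bisphosphatase, which regenerates the acceptor of carbon dioxide. The gene that rose was CP12-2, a small redox protein that holds Calvin cycle enzymes inactive in the dark, with 84.0 and 87.9 CPM at 0.25 μM, against 62.9 and 57.5 CPM at 0.025 μM (Log2FC 0.52 ± 0.12, edgeR adjusted p = 0.00197).

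The genes that build and run the plastid fell with them. All 31 tested plastid ribosomal protein genes fell and all 31 were SDEGs, with Log2FC between -1.85 and -1.01 and a median of -1.51. PRPL9 measured 55.1 and 54.7 CPM at 0.25 μM, against 213 and 186 CPM at 0.025 μM (Log2FC -1.85 ± 0.08, edgeR adjusted p = 9.21e-10), and PRPS6 (-1.75), PRPL5 (-1.73) and PRPL11 (-1.72) were close to it. Added up over the group, the level was 3223 and 3103 CPM at 0.25 μM, against 9352 and 8402 CPM at 0.025 μM. No member fell by less than 2-fold. Of 20 plastid transcription genes, 18 fell, 1 rose and 1 did not pass, with a median of -1.02. FLN2, a fructokinase-like partner of the plastid-encoded polymerase, measured 27.3 and 23.9 CPM at 0.25 μM, against 97.8 and 86.3 CPM at 0.025 μM (Log2FC -1.84 ± 0.10, edgeR adjusted p = 4.13e-09), and TRXZ, the thioredoxin that binds it, measured 12.0 and 13.5 CPM at 0.25 μM, against 47.6 and 39.1 CPM at 0.025 μM (Log2FC -1.75 ± 0.12, edgeR adjusted p = 3.68e-08). PTAC14 (-1.49) and the sigma factor SIG4 (-1.41) also fell. RPOTMP, the phage-type polymerase shared by mitochondria and plastids, rose (0.49 ± 0.10, edgeR adjusted p = 9.79e-04), and SIG5, a stress-responsive sigma factor, had a Log2FC of 0.45 ± 0.20 (edgeR adjusted p = 0.0781).

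Genes for plastid chaperones and proteases fell for the most part. Of 19 tested genes 15 fell, 2 rose and 2 did not pass, with a median of -0.56. The subunits of the chaperonin that folds Rubisco led the decreases: CPN60B2 measured 83.3 and 77.7 CPM at 0.25 μM, against 301 and 282 CPM at 0.025 μM (Log2FC -1.85 ± 0.08, edgeR adjusted p = 8.68e-10), and CPN60B1, CPN20 and CPN60A1 had Log2FC of -1.78, -1.59 and -1.58. CLPD, a Clp chaperone subunit induced in drought and senescence, rose to 367 and 376 CPM at 0.25 μM, against 271 and 252 CPM at 0.025 μM (Log2FC 0.51 ± 0.08, edgeR adjusted p = 6.18e-05), as did the protease FTSH8 (0.34 ± 0.09), while CLPC1, the abundant Clp chaperone, did not pass (-0.09, edgeR adjusted p = 0.368).

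Genes of pigment synthesis fell at nearly every step. Of 28 tested tetrapyrrole genes, which make chlorophyll and haem, 25 fell, 1 rose and 2 did not pass, with a median of -0.95. PORC, a protochlorophyllide oxidoreductase, measured 35.2 and 36.03 CPM at 0.25 μM, against 161 and 127 CPM at 0.025 μM (Log2FC -2.01 ± 0.12, edgeR adjusted p = 1.13e-08). DVR, the divinyl reductase of chlorophyll, measured 34.7 and 37.7 CPM at 0.25 μM, against 149 and 129 CPM at 0.025 μM (Log2FC -1.93 ± 0.09, edgeR adjusted p = 1.37e-09). GUN4, which activates magnesium chelatase and is known from retrograde signalling mutants, measured 33.8 and 34.3 CPM at 0.25 μM, against 101.3 and 92.4 CPM at 0.025 μM (Log2FC -1.50 ± 0.10, edgeR adjusted p = 2.41e-08). These 3 act on the chlorophyll branch, while 2 genes of the haem branch, HO1 (0.10, edgeR adjusted p = 0.246) and FC1 (0.13, edgeR adjusted p = 0.143), did not pass. HEMA2, a glutamyl-tRNA reductase of non-green tissue, was the gene that rose (0.23, edgeR adjusted p = 0.0429), but it lost the call without any of the 4 libraries (0.20 to 0.27). Of 21 isoprenoid and carotenoid genes, 19 fell, 1 rose and 1 did not pass, with a median of -0.74. BCH2 and BCH1, beta-carotene hydroxylases, had Log2FC of -2.08 ± 0.18 and -1.47 ± 0.11, ISPD, of the plastid isoprenoid pathway, -1.69 ± 0.11, and LUT1, a lutein hydroxylase, -1.17 ± 0.11. VDE, the violaxanthin de-epoxidase that switches the xanthophyll cycle towards heat dissipation, rose, with 226 and 218 CPM at 0.25 μM, against 123 and 122 CPM at 0.025 μM (Log2FC 0.86 ± 0.07, edgeR adjusted p = 2.44e-07).

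Of 12 tested regulators of light signalling and greening, 5 fell, none rose and 7 did not pass. GLK2, one of the GARP factors that drive chloroplast development, measured 19.96 and 17.41 CPM at 0.25 μM, against 56.0 and 49.8 CPM at 0.025 μM (Log2FC -1.50 ± 0.12, edgeR adjusted p = 3.07e-07), and its relative GLK1 measured 34.2 and 30.7 CPM at 0.25 μM, against 49.7 and 48.8 CPM at 0.025 μM (Log2FC -0.60 ± 0.11, edgeR adjusted p = 5.09e-04). GNC, a GATA factor of greening, fell by 1.13 on the log2 scale and PIF4, a phytochrome-interacting factor, by 0.70. BBX14 passed (-0.61), but not without replicate 1 at 0.025 μM (-0.34) or replicate 2 at 0.25 μM (-0.42). GUN1, the plastid protein at which retrograde signals are known to meet, had a Log2FC of -0.14 ± 0.08 (edgeR adjusted p = 0.15), and HY5, a main factor of photomorphogenesis, of 0.40 ± 0.18 (edgeR adjusted p = 0.0821).

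**Figure D2:**
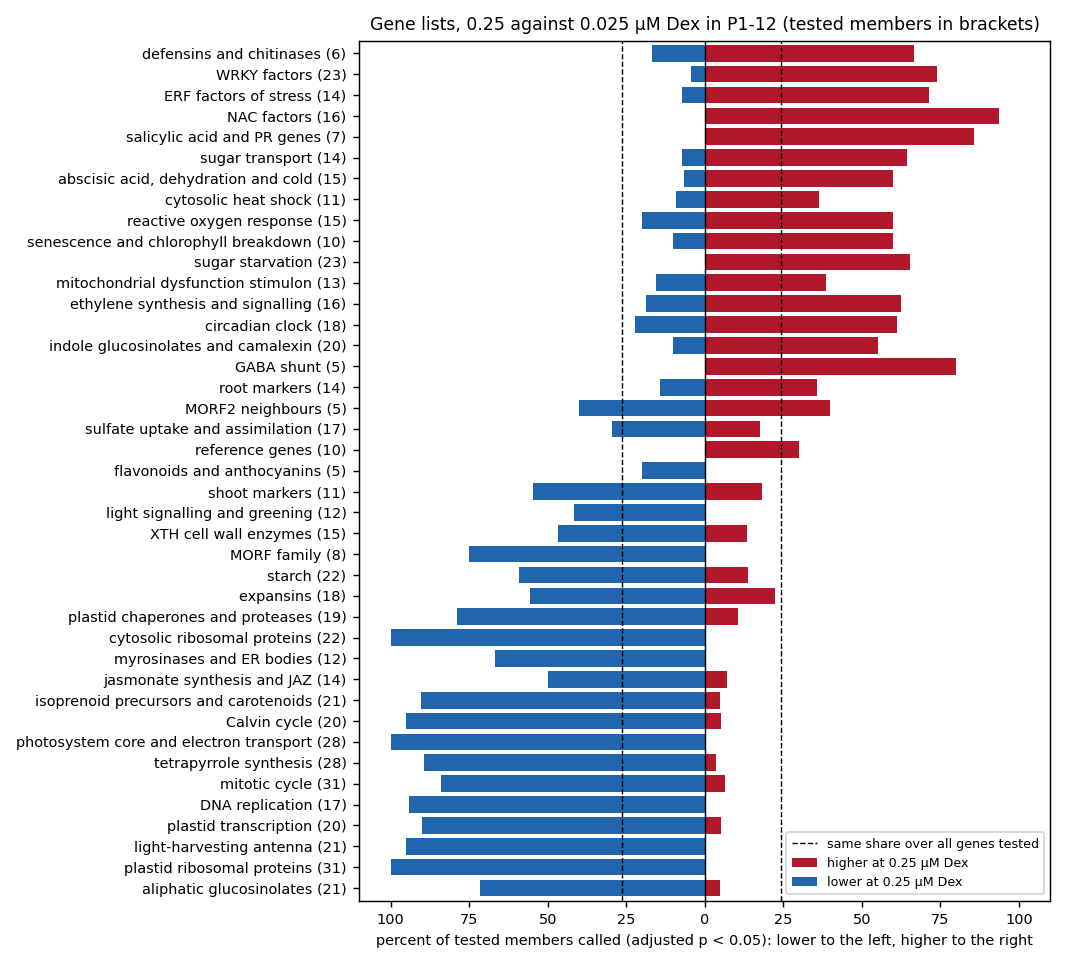
Percent of the tested members of each gene group that were higher (bars to the right) or lower (bars to the left) at 0.25 μM than at 0.025 μM at an edgeR adjusted p below 0.05, with dashed lines at the shares over all tested genes, 24.1% higher and 26.4% lower. The plastid groups, DNA replication, the mitotic cycle and the cytosolic ribosomal proteins reach far to the left, and the NAC, WRKY and ERF factors and the salicylic acid genes to the right.

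Glucosinolate genes divided by the amino acid they start from. Of 21 tested aliphatic glucosinolate genes 15 fell, 1 rose and 5 did not pass, and 13 of the 15 were SDEGs, with a median of -1.61 and the largest decreases those given above. MYB28, a main activator of the aliphatic pathway, measured 10.7 and 9.08 CPM at 0.25 μM, against 30.4 and 26.6 CPM at 0.025 μM (Log2FC -1.52 ± 0.15, edgeR adjusted p = 1.95e-06). The gene that rose was FMOGS-OX4 (0.30 ± 0.08), a side-chain S-oxygenase. SUR1 (0.09) and GGP1 (-0.07), whose enzymes both pathways share, and the sulfotransferase SOT17 (-0.01) did not pass. Of 20 genes of indole glucosinolates and camalexin, made from tryptophan, 11 rose and 2 fell, with a median of 0.30, and the median for Dex over DMSO in the KRAB line was 0.42. MYB51, an activator of the indole pathway, measured 260.3 and 248 CPM at 0.25 μM, against 74.2 and 79.1 CPM at 0.025 μM (Log2FC 1.74 ± 0.09, edgeR adjusted p = 2.63e-09). CYP83B1, the counterpart of CYP83A1 in the indole pathway, measured 1128 and 1238 CPM at 0.25 μM, against 387 and 418 CPM at 0.025 μM (Log2FC 1.56 ± 0.10, edgeR adjusted p = 1.62e-08). CYP81F1 (0.97), which modifies the indole ring, and TSA1 (0.91), of tryptophan synthesis, rose as well. The CYP83 and MYB genes given with CPM were named for their changes, so the gap between their doses is a description. The 2 that fell were MYB34 (-1.66 ± 0.10), another activator of the indole pathway, and PAD3 (-1.27 ± 0.16), the last enzyme of camalexin synthesis.

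Sulfate genes, which supply the sulfur for glucosinolates, had no common direction, with 3 rising and 5 falling of 17 and a median of 0.02. SULTR2;1, a sulfate transporter of the vasculature, measured 9.98 and 11.1 CPM at 0.25 μM, against 143 and 131 CPM at 0.025 μM (Log2FC -3.69 ± 0.10, edgeR adjusted p = 1.86e-11). Among the ATP sulfurylases APS3 fell (-1.96 ± 0.15) and APS4 rose (1.25 ± 0.10), and SDI2, a repressor of glucosinolate synthesis in sulfur deficiency, rose (1.18 ± 0.13). Of 12 genes of myrosinases, which hydrolyse glucosinolates, and of ER bodies, 8 fell and none rose, with a median of -0.60. TGG2, a myrosinase, measured 43.9 and 42.9 CPM at 0.25 μM, against 369.5 and 359 CPM at 0.025 μM (Log2FC -3.06 ± 0.14, edgeR adjusted p = 1.37e-09), and ESM1, a modifier of glucosinolate hydrolysis, measured 10.5 and 10.004 CPM at 0.25 μM, against 109 and 104.6 CPM at 0.025 μM (Log2FC -3.37 ± 0.19, edgeR adjusted p = 7.63e-09). NSP1, a nitrile specifier protein, fell by 1.08 on the log2 scale.

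Salicylic acid genes rose between the doses. Of 7 tested, 6 rose and none fell, with a median of 0.61, and 12 of the 19 in the list were below the filter. ICS1, the isochorismate synthase that makes most salicylic acid in defense, measured 42.6 and 39.4 CPM at 0.25 μM, against 15.0 and 16.9 CPM at 0.025 μM (Log2FC 1.37 ± 0.11, edgeR adjusted p = 1.77e-07). PAD4, a lipase-like protein upstream of it, measured 24.1 and 28.3 CPM at 0.25 μM, against 10.7 and 9.46 CPM at 0.025 μM (Log2FC 1.39 ± 0.15, edgeR adjusted p = 4.20e-06), and its partners SAG101 and EDS1 had Log2FC of 0.93 ± 0.12 and 0.61 ± 0.10. EDS5, which exports the precursor from the plastid, did not pass (0.04, edgeR adjusted p = 0.822). Jasmonate genes went the other way more often, with 7 of 14 falling, 1 rising and a median of -0.61. After LOX2, the enzymes LOX3 (-2.00 ± 0.33), AOS (-1.55 ± 0.20) and AOC2 (-1.43 ± 0.25) fell, while JAR1, which conjugates jasmonate to isoleucine, did not pass (0.05). JAZ10, a repressor of the response, was the gene that rose (1.19 ± 0.31), although not without replicate 1 at 0.025 μM (0.97).

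Defensins and chitinases had a median first step of 3.35 and a median second step of 0.90, and the median for Dex over DMSO in KRAB was 1.11. Of 6 tested, 4 rose between the 2 Dex doses, 1 fell and 1 did not pass. PR3, a basic chitinase, measured 58.0 and 59.6 CPM at 0.25 μM, against 24.8 and 24.5 CPM at 0.025 μM (Log2FC 1.26 ± 0.08, edgeR adjusted p = 3.27e-08), PR4, a hevein-like protein, 1048 and 1052 CPM at 0.25 μM, against 549.8 and 597 CPM at 0.025 μM (Log2FC 0.88 ± 0.15, edgeR adjusted p = 3.06e-04), and ORA59, the ERF factor that activates the defensins, 53.9 and 56.6 CPM at 0.25 μM, against 30.4 and 28.7 CPM at 0.025 μM (Log2FC 0.91 ± 0.19, edgeR adjusted p = 0.00117). All 3 were named for their large changes, so the gap between doses is a description. The defensins PDF1.2, PDF1.2C and PDF1.3 are near-identical copies, so that their reads could be assigned to the wrong copy: PDF1.2C fell (-1.55), PDF1.3 rose (1.08) and PDF1.2 did not pass (-0.06, edgeR adjusted p = 0.887). Both of these calls, which are part of the counts above, were lost with the DESeq2 Wald test, for PDF1.2C (-1.53) and PDF1.3 (1.1).

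In each group of stress transcription factors most members rose. Of 16 tested NAC factors 15 rose and none fell, with a median of 0.75. NAC053, a factor of proteasome and oxidative stress, measured 258 and 261 CPM at 0.25 μM, against 64.5 and 64.1 CPM at 0.025 μM (Log2FC 2.02 ± 0.10, edgeR adjusted p = 4.45e-09). ATAF1, of abscisic acid and carbon starvation responses, measured 374 and 367 CPM at 0.25 μM, against 98.1 and 113 CPM at 0.025 μM (Log2FC 1.82 ± 0.10, edgeR adjusted p = 7.93e-09). NAC047 (1.67) and RD26 (1.22) came next, and NAC087 was the one that did not pass (-0.16). Of 23 tested WRKY factors 17 rose, 1 fell and 5 did not pass, with a median of 0.89. WRKY54, a factor of salicylic acid signalling, measured 22.8 and 26.6 CPM at 0.25 μM, against 3.32 and 3.28 CPM at 0.025 μM (Log2FC 2.91 ± 0.21, edgeR adjusted p = 6.02e-08). WRKY26, of heat responses, measured 55.9 and 52.6 CPM at 0.25 μM, against 18.9 and 20.11 CPM at 0.025 μM (Log2FC 1.48 ± 0.16, edgeR adjusted p = 4.42e-06), and WRKY75, of phosphate starvation and senescence, 7.69 and 11.02 CPM at 0.25 μM, against 4.11 and 2.73 CPM at 0.025 μM (Log2FC 1.47 ± 0.25, edgeR adjusted p = 1.96e-04). WRKY45 (1.39) rose too. These WRKY genes were named for their large changes, so the gap between their doses is a description. WRKY40, the member that fell (-1.19), lost the call without replicate 2 at 0.025 μM (-0.68) or replicate 1 at 0.25 μM (-1.01). Of 14 tested ERF factors 10 rose and 1 fell, with a median of 0.77, led by RAP2.6L (2.04 ± 0.18), ERF104 (1.76 ± 0.15), RAP2.2 (1.60 ± 0.08), of the low-oxygen response, and ERF4 (1.49 ± 0.11). RAP2.2 measured 935 and 914 CPM at 0.25 μM, against 292 and 320.1 CPM at 0.025 μM. ERF6, the ERF factor that fell, lost the call without replicate 2 at 0.025 μM (-0.58) or at 0.25 μM (-0.56).

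The W-box core TTGAC, the letters that WRKY factors are known to bind and that stand in many WRKY promoters, is shown in the 250 bases before the starts of WRKY26 (chr5:2203956-2204205, plus strand) and WRKY75 (chr5:4151202-4151451, minus strand) of the TAIR10.1 assembly, where the capitals mark it as read on either strand.
WRKY26: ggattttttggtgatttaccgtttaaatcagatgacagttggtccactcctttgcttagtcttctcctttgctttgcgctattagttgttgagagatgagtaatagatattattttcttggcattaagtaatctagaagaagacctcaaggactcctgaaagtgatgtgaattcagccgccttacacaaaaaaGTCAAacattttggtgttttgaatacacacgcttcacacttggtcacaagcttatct
WRKY75: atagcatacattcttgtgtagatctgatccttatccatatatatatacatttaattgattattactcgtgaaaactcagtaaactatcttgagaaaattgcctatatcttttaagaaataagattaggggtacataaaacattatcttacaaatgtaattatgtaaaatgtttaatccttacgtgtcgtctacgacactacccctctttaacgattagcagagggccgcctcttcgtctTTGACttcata
The letters were found on either strand, between 250 bases before and 50 after the start, in 26 of 32 WRKY promoters (81.2%), against 50.5% of all promoters and 51.3% of those of the SDEGs that were higher. For the clock group below, the evening element AAAATATCT was in 31.6%, against 2.82% of all promoters, and for the group of mitochondrial dysfunction genes the motif of that name was in 47.1%, against 2.14%. Among promoters of the SDEGs that were higher, these motifs were in 5.25% and 2.22%. The shares of the groups describe the lists and not the step between doses.

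Ethylene genes rose mostly by small amounts, with 10 of 16 rising, 3 falling and a median of 0.36. ACO1, an ACC oxidase that makes ethylene, measured 42.1 and 43.4 CPM at 0.25 μM, against 9.09 and 10.7 CPM at 0.025 μM (Log2FC 2.11 ± 0.14, edgeR adjusted p = 4.00e-08), but 2 other synthesis genes fell, the oxidase ACO4 (-0.88 ± 0.11) and the synthase ACS6 (-0.88 ± 0.17). The receptor EIN4 (0.72) and the F-box protein EBF2 (0.67) that removes EIN3, rose. Of 15 genes of the response to reactive oxygen species 9 rose and 3 fell, with a median of 0.46. The zinc finger factors ZAT12 (1.74 ± 0.17) and ZAT10 (1.05 ± 0.22) and the copper/zinc superoxide dismutases CSD1 (1.36 ± 0.09) and CSD2 (1.21 ± 0.10) rose, whereas the iron superoxide dismutase FSD1 fell, with 359 and 353 CPM at 0.25 μM, against 929.6 and 1066 CPM at 0.025 μM (Log2FC -1.48 ± 0.09, edgeR adjusted p = 1.61e-08). CSD1 measured 343 and 350.1 CPM at 0.25 μM, against 131 and 139 CPM at 0.025 μM. The 2 kinds of superoxide dismutase thus had opposite signs.

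Of 13 tested genes of the mitochondrial dysfunction stimulon, a set that answers to mitochondrial stress, 5 rose and 2 fell, with a median of 0.37, and the median for Dex over DMSO in KRAB was 0.51. NAC013, one of the 5, lost its call with the DESeq2 Wald test (0.44) and when any of the 4 libraries was left out (0.35 to 0.51). UGT74E2, a glycosyltransferase, measured 24.1 and 23.2 CPM at 0.25 μM, against 11.5 and 9.28 CPM at 0.025 μM (Log2FC 1.19 ± 0.17, edgeR adjusted p = 4.22e-05), OM66, an outer membrane protein, 10.2 and 12.0 CPM at 0.25 μM, against 6.06 and 5.91 CPM at 0.025 μM (Log2FC 0.90 ± 0.19, edgeR adjusted p = 0.00105), and GSTU24 had a Log2FC of 0.59 ± 0.10. AOX1A, the alternative oxidase often used as the marker of this response, rose slightly (0.26 ± 0.09, edgeR adjusted p = 0.0291). The 2 that fell, SOT12 (-0.36) and GSTU25 (-0.34), each lost the call without 3 of the 4 libraries, SOT12 without replicate 1 (-0.35) or 2 (-0.37) at 0.025 μM or replicate 2 at 0.25 μM (-0.26), and GSTU25 without replicate 1 (-0.34) or 2 (-0.32) at 0.025 μM or replicate 1 at 0.25 μM (-0.16). Of 11 cytosolic heat shock genes 4 rose and 1 fell. HSFA7A, a heat shock factor, measured 19.8 and 19.2 CPM at 0.25 μM, against 5.87 and 5.64 CPM at 0.025 μM (Log2FC 1.76 ± 0.18, edgeR adjusted p = 2.63e-06), and the chaperones HSP70-4 (1.12), HSP101 (1.11) and HSP90.1 (0.94) rose, while the immunophilin ROF2 fell (-0.86 ± 0.12).

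Genes known to rise when carbon is short did so in part. Of 23 tested sugar starvation genes 15 rose and none fell, with a median of 0.37, and the median for Dex over DMSO in the KRAB line was -0.39. GAT1_2.1, an amidotransferase-like protein, measured 55.1 and 54.9 CPM at 0.25 μM, against 19.6 and 18.199 CPM at 0.025 μM (Log2FC 1.55 ± 0.10, edgeR adjusted p = 2.98e-08). BCAT2 (1.14 ± 0.13), IVD (1.101 ± 0.08) and LKR (0.97 ± 0.09), which break down branched-chain amino acids and lysine, also rose. DIN6, an asparagine synthetase and a common marker of dark starvation, measured 279 and 239 CPM at 0.25 μM, against 214 and 296 CPM at 0.025 μM and did not pass (0.03, edgeR adjusted p = 0.92). Of 14 sugar transporters 9 rose and 1 fell, with a median of 0.61. STP13, a hexose importer of defense, measured 179.6 and 174 CPM at 0.25 μM, against 56.5 and 53.2 CPM at 0.025 μM (Log2FC 1.696 ± 0.15, edgeR adjusted p = 5.11e-07), and SWEET1 (1.35), SUC1 (1.00) and STP1 (0.90) rose too, while the vacuolar SWEET17 fell (-0.63 ± 0.10). Of 22 starch genes 13 fell and 3 rose, with a median of -0.35: GBSS1, granule-bound starch synthase, measured 18.6 and 19.4 CPM at 0.25 μM, against 47.5 and 46.9 CPM at 0.025 μM (Log2FC -1.31 ± 0.11, edgeR adjusted p = 3.83e-07), and the pyrophosphorylase subunits APL3 (-1.25) and APL1 (-1.07) fell. The starch synthase SS1 rose (0.49). In the GABA shunt 4 of 5 rose, led by the glutamate decarboxylases GAD4 (1.69 ± 0.24) and GAD1 (0.74 ± 0.08). GAD2, which also rose, lost its call without replicate 2 at 0.025 μM (0.17) or without replicate 1 (0.23) or 2 (0.21) at 0.25 μM. SSADH, of the same group, lost its call without replicate 1 at 0.025 μM (0.25). Of 10 senescence genes 6 rose, including SWEET15 (0.86) and the chlorophyll b reductase NYC1 (0.60), while its homologue NOL fell (-0.83 ± 0.10).

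Of 15 tested genes of abscisic acid, dehydration and cold, 9 rose and 1 fell, with a median of 0.49. DREB2A, a factor of drought and heat, measured 34.6 and 30.4 CPM at 0.25 μM, against 7.62 and 7.83 CPM at 0.025 μM (Log2FC 2.08 ± 0.14, edgeR adjusted p = 5.44e-08). ABI2, a phosphatase that holds abscisic acid signalling down, measured 33.6 and 29.1 CPM at 0.25 μM, against 10.07 and 9.10 CPM at 0.025 μM (Log2FC 1.71 ± 0.13, edgeR adjusted p = 1.45e-07), and the dehydrin COR47 1538 and 1526 CPM at 0.25 μM, against 593 and 606 CPM at 0.025 μM (Log2FC 1.36 ± 0.10, edgeR adjusted p = 1.03e-07). These 3 rose in both libraries by similar amounts. RAB18, another dehydrin and also a gene of maturing seeds, measured 34.2 and 17.7 CPM at 0.25 μM, against 5.77 and 4.64 CPM at 0.025 μM (Log2FC 2.32 ± 0.34, edgeR adjusted p = 5.93e-05), with replicates at 0.25 μM that differed almost 2-fold. KIN2, of cold and dehydration, fell (-1.42 ± 0.13). Among clock genes 11 of 18 rose and 4 fell, with a median of 0.34. Of the evening genes FKF1 (1.101 ± 0.13), GI (0.88 ± 0.07) and ELF4 (0.85 ± 0.13) rose, and the morning gene CCA1 fell (-0.92 ± 0.20). GI measured 324 and 345 CPM at 0.25 μM, against 188 and 179 CPM at 0.025 μM and CCA1 8.42 and 8.06 CPM at 0.25 μM, against 16.0 and 15.3 CPM at 0.025 μM. The time of harvest was not given in the sources used here. Only 5 of 15 flavonoid genes were tested: FLS1 fell (-0.52 ± 0.17), though not without replicate 1 at 0.025 μM (-0.39), replicate 1 at 0.25 μM (-0.47) or replicate 2 at 0.25 μM (-0.58), and CHS did not pass (0.06).

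Genes of cell division fell together. Of 31 tested genes of the mitotic cycle 26 fell, 2 rose and 3 did not pass, with a median of -0.95, where the first step had a median of -0.09. MAD2, of the spindle checkpoint, measured 9.98 and 10.6 CPM at 0.25 μM, against 25.8 and 27.8 CPM at 0.025 μM (Log2FC -1.38 ± 0.13, edgeR adjusted p = 9.22e-07). PLE, a microtubule bundler of the dividing cell, measured 10.5 and 13.4 CPM at 0.25 μM, against 30.8 and 30.4 CPM at 0.025 μM (Log2FC -1.34 ± 0.12, edgeR adjusted p = 5.88e-07), and the cyclins CYCB2;2 (-1.30 ± 0.19) and CYCA1;1 (-1.26 ± 0.13) fell by like amounts. The decreases were spread over cyclins, kinases and cytokinesis proteins, and the D-type cyclins CYCD2;1 (-0.11), CYCD3;1 (-0.06) and CYCD1;1 (0.19), which link growth signals to division, were the 3 that did not pass. CYCD3;3 (0.31) and CYCA2;2 (0.77) rose but lost the call without 1 or another library, CYCD3;3 without replicate 1 at 0.025 μM (0.30) or replicate 2 at 0.25 μM (0.30), and CYCA2;2 without replicate 2 at 0.025 μM (0.58) or replicate 2 at 0.25 μM (0.48). Of 17 DNA replication genes 16 fell, with a median of -0.97, among them CDC45 (-1.71 ± 0.19), CDC6 (-1.47 ± 0.24), ORC6 (-1.13 ± 0.27) and MCM3 (-1.10 ± 0.14), parts of the origin and helicase complexes, and RNR2A did not pass (-0.10). The MSA core AACGG, known from promoters of mitotic genes, was on either strand in 20 of 33 promoters of the mitotic group (60.6%), against 24.7% of all promoters. It was in 20.6% of promoters of higher SDEGs and 28.3% of those of lower SDEGs, against 26.5% of promoters of tested genes. The MSA core is shown in capitals in the 250 bases before the start of MAD2 (chr3:9502806-9503055, plus strand, TAIR10.1).
MAD2: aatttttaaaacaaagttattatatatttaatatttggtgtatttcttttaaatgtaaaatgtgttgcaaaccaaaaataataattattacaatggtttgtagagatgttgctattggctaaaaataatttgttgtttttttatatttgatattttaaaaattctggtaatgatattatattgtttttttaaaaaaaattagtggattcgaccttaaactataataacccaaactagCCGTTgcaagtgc

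All 22 tested cytosolic ribosomal protein genes fell, none as an SDEG, with Log2FC between -0.78 and -0.37 and a median of -0.58. RPS6A, of the small subunit, measured 259.9 and 279.8 CPM at 0.25 μM, against 466 and 462 CPM at 0.025 μM (Log2FC -0.78 ± 0.08, edgeR adjusted p = 2.04e-06), and RPL23AA (-0.72), RPS21B (-0.71) and RPL5B (-0.71) were close to it. The median of the group in the first step was 0.05. The telo-box AAACCCTA was in 10 of the 22 promoters (45.5%), against 6.22% of all, and the site II letters TGGGCC in 59.1% of these and 61.1% of the DNA replication promoters, against 15.5% of all, all on either strand. The telo-box is in capitals in the 250 bases before RPL28A (chr2:8511236-8511485, plus strand, TAIR10.1), a gene with 139 and 143 CPM at 0.25 μM, against 203 and 226 CPM at 0.025 μM that was chosen for display by its promoter.
RPL28A: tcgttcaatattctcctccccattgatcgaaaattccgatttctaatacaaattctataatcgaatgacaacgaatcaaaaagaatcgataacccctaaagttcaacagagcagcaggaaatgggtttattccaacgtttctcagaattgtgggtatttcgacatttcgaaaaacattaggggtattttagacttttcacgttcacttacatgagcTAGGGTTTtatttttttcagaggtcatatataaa
Among the promoters of all SDEGs, the site II letters were in 7.07% of those that were higher and in 19.0% of those that were lower, against 20.3% of the promoters of tested genes. The telo-box was in 2.63%, 4.69% and 5.61% of these promoters in the same order.

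**Figure D3:**
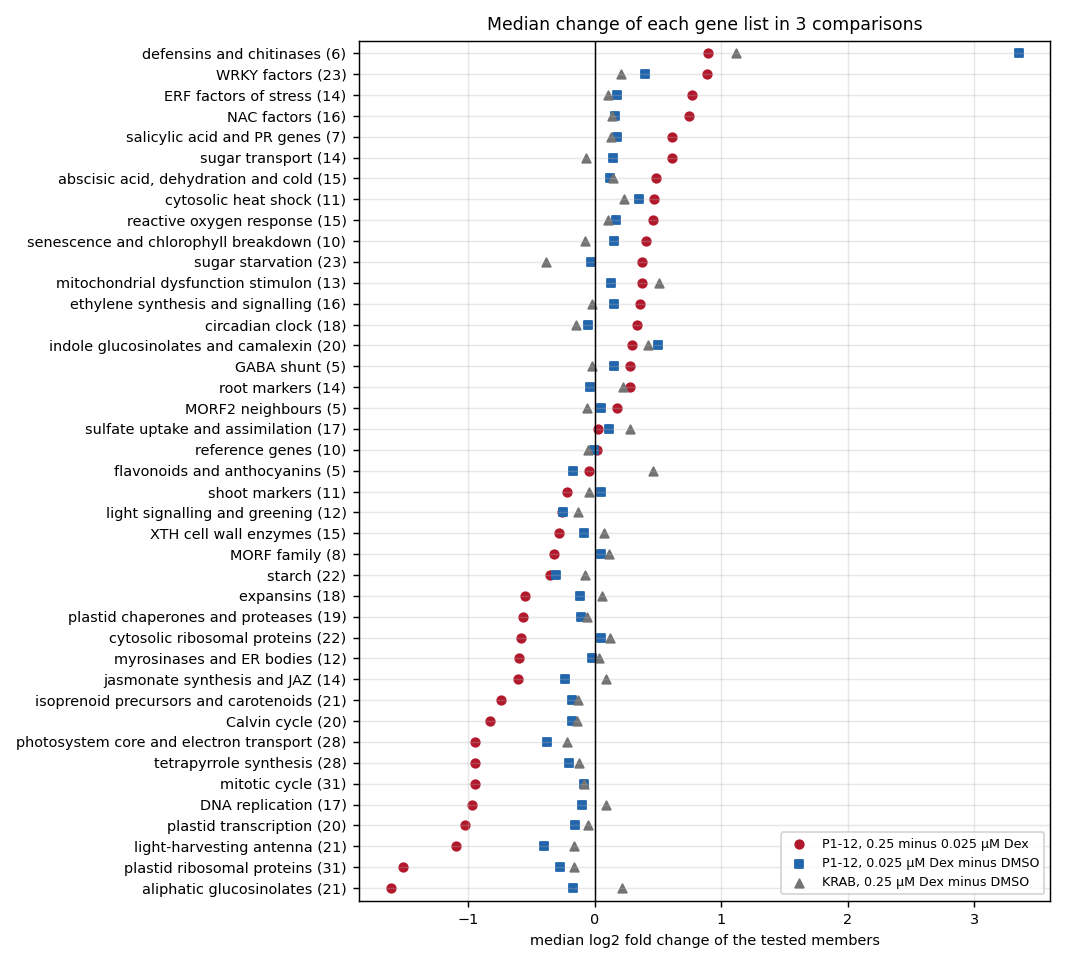
Median Log2FC of each gene group for 0.25 μM against 0.025 μM Dex in P1-12 (red circles), 0.025 μM Dex against DMSO in P1-12 (blue squares) and 0.25 μM Dex against DMSO in KRAB (grey triangles), on a log2 axis. The first 2 comparisons share the 0.025 μM libraries; for the cytosolic ribosomal proteins the red circle is at -0.58 and the blue square at 0.05.

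Wall-loosening genes fell more often than they rose. Of 18 tested expansins 10 fell and 4 rose, with a median of -0.55. EXPB3 measured 9.25 and 10.5 CPM at 0.25 μM, against 115 and 104.6 CPM at 0.025 μM (Log2FC -3.47 ± 0.10, edgeR adjusted p = 2.81e-11). EXPA15 measured 11.1 and 11.9 CPM at 0.25 μM, against 87.7 and 76.1 CPM at 0.025 μM (Log2FC -2.82 ± 0.11, edgeR adjusted p = 7.99e-10), and EXPA5 (-2.01) and EXPA1 (-1.61) fell as well. In the first 2 genes the libraries at 0.25 μM were between 6 and 13 times below those at 0.025 μM. EXPB1 rose (0.66), though not without replicate 2 at 0.25 μM (0.48). Of 15 xyloglucan endotransglucosylases (XTH), which cut and rejoin wall polymers, 7 fell and 2 rose, with a median of -0.28 that was -0.50 without replicate 1 and -0.14 without replicate 2 at 0.025 μM. XTH31 measured 11.5 and 11.7 CPM at 0.25 μM, against 73.5 and 64.1 CPM at 0.025 μM (Log2FC -2.56 ± 0.10, edgeR adjusted p = 6.07e-10), XTH16 and XTH9 had Log2FC of -1.61 ± 0.16 and -1.49 ± 0.15, and XTH23, a touch-responsive member, rose, with 48.4 and 44.0 CPM at 0.25 μM, against 20.7 and 24.7 CPM at 0.025 μM (Log2FC 1.03 ± 0.19, edgeR adjusted p = 5.13e-04). XTH19, the other that rose, lost its call with the DESeq2 Wald test (0.66), without replicate 1 at 0.025 μM (0.50) and without replicate 2 at 0.25 μM (0.28).

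Markers of root and shoot cells were both present, which fits the label of whole seedlings. Of 14 tested root markers 5 rose and 2 fell, with a median of 0.28 that was 0.06 without replicate 2 at 0.25 μM, and the median for Dex over DMSO in KRAB was 0.23. Root markers had a summed level over the 20 in the list of 294 and 347 CPM at 0.25 μM, against 215 and 237 CPM at 0.025 μM. TIP2;3, a tonoplast aquaporin of roots, measured 52.7 and 65.2 CPM at 0.25 μM, against 11.3 and 13.0 CPM at 0.025 μM (Log2FC 2.28 ± 0.14, edgeR adjusted p = 1.68e-08), and the endodermal peroxidase PER72 had a Log2FC of 0.54 ± 0.10. CASP1, of the Casparian strip, rose (0.49) but not without replicate 2 at 0.25 μM (0.34), and CASP2 rose (0.56) but not without replicate 2 at 0.025 μM (0.40) or at 0.25 μM (0.34). The pump AHA7 fell (-0.93 ± 0.19), as did LRX1 (-0.45), which lost its call with the DESeq2 Wald test (-0.43), without replicate 2 at 0.025 μM (-0.33) and without replicate 1 at 0.25 μM (-0.30). Of 11 tested shoot markers 6 fell and 2 rose, with a median of -0.22 and a sum of 492 and 465 CPM at 0.25 μM, against 566 and 516 CPM at 0.025 μM. KAT1, a guard cell channel, measured 3.02 and 2.50 CPM at 0.25 μM, against 15.5 and 11.6 CPM at 0.025 μM (Log2FC -2.29 ± 0.26, edgeR adjusted p = 5.76e-06), ATML1, of the epidermis, had a Log2FC of -1.18 ± 0.09, and FAMA, of guard cell fate, of -0.83 ± 0.17. By contrast SPCH, which starts the stomatal lineage, rose, with 48.7 and 52.8 CPM at 0.25 μM, against 16.7 and 13.2 CPM at 0.025 μM (Log2FC 1.77 ± 0.13, edgeR adjusted p = 1.05e-07), as did TMM (0.81 ± 0.12). The sums of the 2 lists moved in opposite directions, but TIP2;3 alone made up a large part of the rise in the root sum. Among the tested members 7 root markers and 3 shoot markers did not pass, so the sums do not describe every marker. The part of cell proportions in the results was not tested. Of 10 reference genes commonly used for normalization 7 did not pass, and ACT8 (1.00 ± 0.07), UBQ10 (0.59 ± 0.07) and ACT2 (0.35 ± 0.08) rose.

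Genes left out by the main filter because they were low in some of the 10 libraries were tested apart, over the 1315 that had more than 2 CPM in at least 2 of the 4 libraries. Of these, 116 were SDEGs that were higher at 0.25 μM (8.82%) and 109 were SDEGs that were lower (8.29%). A gene that is high at 1 dose alone passed this filter through that dose and had to differ, so these counts and shares, and the direction of single genes among them, describe the genes and support nothing about a group. Both counts rested on every library: leaving 1 out gave 23 to 73 higher genes (23 and 28 without replicate 1 and 2 at 0.025 μM, 50 and 73 without replicate 1 and 2 at 0.25 μM) and 39 to 65 lower ones (55 and 65, 49 and 39 in the same order). The gene with the largest change upwards was PR1, the classic marker of salicylic acid, with 643 and 570 reads at 0.25 μM, against 0 and 1 reads at 0.025 μM, a ratio of 1261-fold (counting interval 226 to 49845). For genes this low, the ratio is that of the pooled reads after scaling, and its interval covers counting error only, at 95%. WRKY70 had 279 and 313 reads at 0.25 μM, against 16 and 11 reads at 0.025 μM, a ratio of 22.8-fold (counting interval 15.5 to 34.9), and SARD1, which activates ICS1, had 1375 and 1520 reads at 0.25 μM, against 161 and 190 reads at 0.025 μM, a ratio of 8.57-fold (counting interval 7.67 to 9.61). PBS3, which conjugates isochorismate, had 88 and 91 reads at 0.25 μM, against 7 and 0 reads at 0.025 μM. CBP60G and NUDT6, of the same list, were higher too. AT4G14250, annotated as a ribosomal structural protein, was at least 21.5-fold higher, against a floor of 3 reads over the 2 libraries at 0.025 μM.

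Among the lower genes of this set were several of the aliphatic glucosinolate pathway. CYP79F1, the entry enzyme that turns elongated methionine into aldoximes, had 10 and 8 reads at 0.25 μM, against 1033 and 1261 reads at 0.025 μM, a ratio of 123-fold (counting interval 77.4 to 207) in favour of the lower dose. MYB29, the other activator beside MYB28, had 1 and 0 reads at 0.25 μM, against 97 and 65 reads at 0.025 μM, a ratio of 156-fold (counting interval 27.6 to 6193), and AOP2, which modifies the side chain, had 0 and 1 reads at 0.25 μM, against 52 and 54 reads at 0.025 μM. CYP79F2, FMOGS-OX1 and GSTF11 were also lower. GASA5, a gibberellin-regulated peptide, had 0 and 0 reads at 0.25 μM, against 100 and 123 reads at 0.025 μM and was at least 71.5-fold lower, against the floor of 3 reads over the group. GolS4, a galactinol synthase, was at least 36.2-fold lower, and AT3G21950, annotated as a methyltransferase, at least 24.0-fold lower, both with no read at 0.25 μM. VSP2, a jasmonate-responsive storage protein, had 6 and 9 reads at 0.25 μM, against 438 and 455 reads at 0.025 μM, and ESP, which directs glucosinolates to epithionitriles, had 5 and 2 reads at 0.25 μM, against 132 and 150 reads at 0.025 μM. The anthocyanin genes DFR, LDOX and TT19 were lower as well, DFR with 8 and 4 reads at 0.25 μM, against 200 and 115 reads at 0.025 μM.

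Genes of seeds stood out for the difference between the 2 libraries at 0.25 μM. CRA1, a cruciferin storage protein, had 790.2 and 63.5 CPM at 0.25 μM, against 5.87 and 1.55 CPM at 0.025 μM, and CRU3, another cruciferin, 499.5 and 30.0 CPM at 0.25 μM, against 0.684 and 0.364 CPM at 0.025 μM. Replicate 1 at 0.25 μM was thus 12 or more times above replicate 2, and replicate 2 was itself above every other P1-12 library. The list of 18 seed storage and embryo genes, made after these values were seen, summed to 1432 and 130.4 CPM at 0.25 μM, against 10.07 and 4.37 CPM at 0.025 μM and 2.46 and 2.94 CPM with DMSO. Most of both sums at 0.25 μM came from CRA1 and CRU3, so the sum does not describe every member. CRU2, SESA4, FUS3, LEC1 and LEC2 had no more than 1 read in any library of the 2 Dex doses. OLEO4 measured 1.77 and 0.185 CPM at 0.25 μM, against 0.489 and 1.46 CPM at 0.025 μM, with overlap of the doses. None of the 18 passed the main filter, and 5 were among the 116 genes that were higher in the set above: CRA1, the oleosins OLEO1 and OLEO2, the peroxiredoxin PER1 and ABI3, a factor of seed maturation. ABI3 had 131 and 59 reads at 0.25 μM, against 2 and 0 reads at 0.025 μM, a ratio of 98.8-fold (counting interval 27.0 to 821), and EPR1, an extensin-like protein of germinating endosperm, had 229 and 79 reads at 0.25 μM, against 2 and 0 reads at 0.025 μM, a ratio of 160.1-fold (counting interval 43.9 to 1328). RD29B, of dehydration and seeds, followed with 345 and 99 reads at 0.25 μM, against 9 and 1 reads at 0.025 μM. The same order of the 2 libraries was seen for RAB18. Over all 116, 17 differed at least 3-fold between the 2 libraries at 0.25 μM, and the part of seed or embryo tissue in them was not tested.

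Transcripts of organelles and ribosomal RNA moved with the dose too. AT3G41768, annotated as a ribosomal RNA locus of chromosome 3, measured 4189.6 and 3092 CPM at 0.25 μM, against 862 and 589 CPM at 0.025 μM (Log2FC 2.33 ± 0.20, edgeR adjusted p = 4.12e-07). ATMG00020 of the mitochondrial genome measured 2033 and 1645 CPM at 0.25 μM, against 590.2 and 550.3 CPM at 0.025 μM (Log2FC 1.695 ± 0.09, edgeR adjusted p = 7.81e-09) and ATMG01390 948 and 679 CPM at 0.25 μM, against 237 and 185 CPM at 0.025 μM (Log2FC 1.95 ± 0.15, edgeR adjusted p = 1.03e-07). All 3 mitochondrial loci that could be tested rose, the third being ATMG00090 (2.01 ± 0.29). The 146 mitochondrial loci summed to 3119 and 2421 CPM at 0.25 μM, most of it from ATMG00020 and ATMG01390. The rise therefore does not describe mitochondrial transcripts in general. Of 47 tested plastid loci 19 rose and 15 fell. ATCG00020, the largest increase, measured 291 and 226 CPM at 0.25 μM, against 63.6 and 27.9 CPM at 0.025 μM (Log2FC 2.51 ± 0.27, edgeR adjusted p = 3.14e-06), and ATCG01130, the largest decrease, 591 and 469.6 CPM at 0.25 μM, against 1617 and 1296 CPM at 0.025 μM (Log2FC -1.45 ± 0.12, edgeR adjusted p = 1.95e-07). The step of ATCG00020 between DMSO and 0.025 μM was 0.60 and that of ATCG01130 -0.24. Replicate 1 was above replicate 2 at both doses in each of these loci. Such loci are named by identifier, and how RNA was selected for the libraries was not given in the sources used here, so that a change in transcript level and a change in what was captured cannot be told apart.

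**Figure D4:**
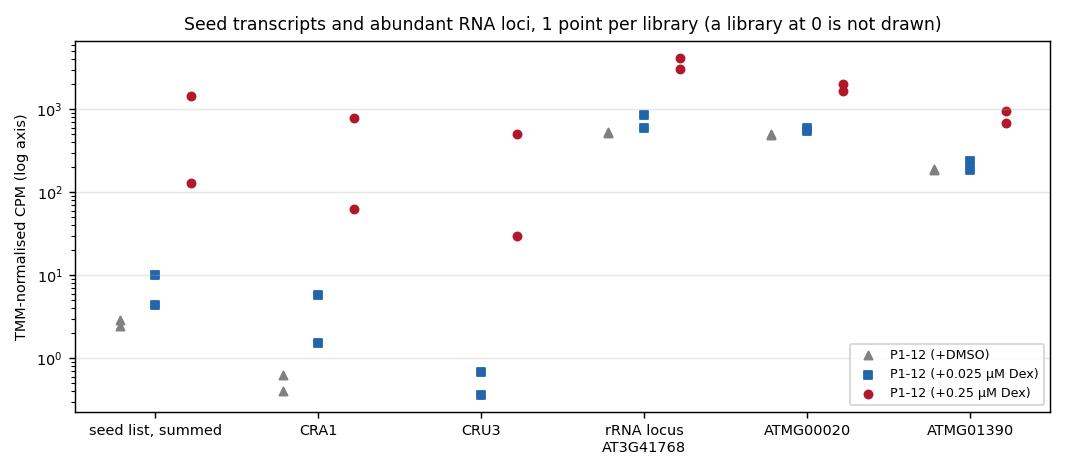
CPM per library on a log axis in P1-12 with DMSO and with Dex at 0.025 and 0.25 μM for the summed seed list, CRA1, CRU3, the ribosomal RNA locus AT3G41768 and the mitochondrial loci ATMG00020 and ATMG01390, with 1 point per library and no point for a library at 0. The 2 libraries at 0.25 μM are far apart for the seed genes (790.2 and 63.5, against 5.87 and 1.55 CPM for CRA1) and close for the other loci.

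Whether the second step differed from the first was tested directly, as the Log2FC from 0.025 to 0.25 μM minus that from DMSO to 0.025 μM. Because the 0.025 μM libraries enter both steps with opposite signs, an error in them moves the 2 steps apart, and the values of both steps are given side by side. With a difference of at least 1 in size and an adjusted p below 0.0001, 44 genes had a second step above the first (0.263% of those tested) and 204 a second step below it (1.22%). These counts depended on each library: the first was 1 and 2 without replicate 1 and 2 at 0.025 μM, 16 and 10 without those at 0.25 μM and 30 and 21 without those with DMSO, and the second 21 and 53, 60 and 49, and 106 and 105 in the same order.

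The genes with the largest second step above the first are given with all 3 doses. ECS1, a wall-associated protein, measured 41.8 and 66.2 CPM with DMSO, 33.9 and 33.03 CPM at 0.025 μM and 228 and 236 CPM at 0.25 μM, with a difference of steps of 3.49 ± 0.31 (edgeR adjusted p = 7.45e-06). CYP707A1 measured 8.08 and 6.77 CPM with DMSO, 6.94 and 5.37 CPM at 0.025 μM and 45.6 and 47.3 CPM at 0.25 μM (difference 3.21 ± 0.32). NIT2 measured 33.1 and 37.4 CPM with DMSO, 35.1 and 35.6 CPM at 0.025 μM and 298 and 283 CPM at 0.25 μM (difference 3.04 ± 0.15, edgeR adjusted p = 3.31e-08). In all 3 the libraries at 0.25 μM stood several times above every other P1-12 library. TIP2;3 (2.56) and AT1G12010 (2.55), annotated as a 2-oxoglutarate-dependent oxygenase, completed the 5 largest.

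The 5 genes with a second step furthest below the first follow. BGLU45, a beta-glucosidase, rose at both steps but less at the second, with 2.298 and 4.73 CPM with DMSO, 345 and 383 CPM at 0.025 μM and 934 and 911 CPM at 0.25 μM (difference -5.35 ± 0.22, edgeR adjusted p = 6.14e-09), and its step in KRAB from DMSO to 0.25 μM Dex was 3.75. PDF1.2 measured 2.06 and 13.8 CPM with DMSO, 357 and 399 CPM at 0.025 μM and 378 and 345 CPM at 0.25 μM (difference -5.64 ± 0.56). PDF1.2C measured 1.90 and 13.5 CPM with DMSO, 184 and 159 CPM at 0.025 μM and 63.6 and 52.6 CPM at 0.25 μM (difference -6.04 ± 0.57). AACT1, an acyltransferase named for anthocyanins by its symbol alone, measured 1.82 and 9.62 CPM with DMSO, 113 and 96.7 CPM at 0.025 μM and 34.8 and 38.6 CPM at 0.25 μM (difference -5.70 ± 0.52). Both PDF1.2C and AACT1 were highest at 0.025 μM. The replicates with DMSO were far apart in PDF1.2, PDF1.2C and AACT1, and the profiles of the near-identical PDF1.2 and PDF1.2C are uncertain as single genes. In contrast BCAT4 measured 120.2 and 168 CPM with DMSO, 99.9 and 110.2 CPM at 0.025 μM and 2.91 and 2.59 CPM at 0.25 μM (difference -4.79 ± 0.28). The first 4 had been raised by the first step, while BCAT4 fell by a first step of -0.46 (edgeR adjusted p = 0.0358) and a second of -5.25.

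**Figure D5:**
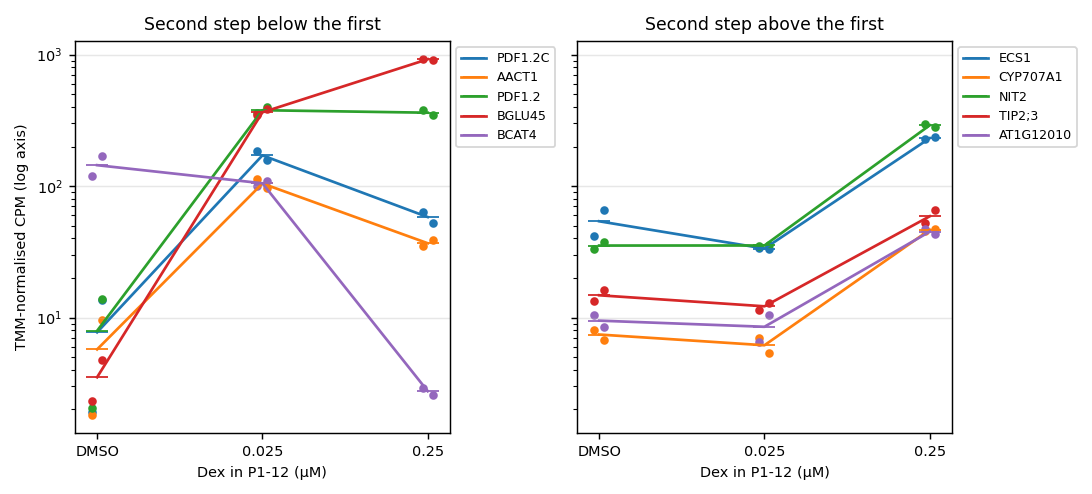
CPM per library on a log axis in P1-12 with DMSO and with Dex at 0.025 and 0.25 μM for the 5 genes with a second step furthest below the first (left panel: PDF1.2C, AACT1, PDF1.2, BGLU45 and BCAT4) and the 5 furthest above it (right panel: ECS1, CYP707A1, NIT2, TIP2;3 and AT1G12010), with points for libraries and lines through the means. PDF1.2C peaks at 0.025 μM, BCAT4 drops mostly at 0.25 μM, and the genes on the right are highest at 0.25 μM.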

How the data were processed

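Total RNA of whole seedlings was sequenced in 10 libraries, 2 for each of 5 groups. According to the processing notes and methods, the authors used Trimmomatic for trimming, TopHat2 for alignment to the TAIR10 genome and HTSeq for assigning reads to genes, and they deposited the raw read counts, with versions, strand setting and RNA selection not given in the sources used here. A transcript with near-identical copies may therefore share or lose reads.

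Counts were fitted in edgeR 4.0.16 (R 4.3.3) with TMM normalization, a mean for each of the 5 groups and the quasi-likelihood test, on 16721 of 33602 loci that exceeded 2 CPM in 9 or 10 of the libraries. The common biological coefficient of variation was 0.0654, with 5 residual degrees of freedom. No 2 libraries agreed within sampling noise. Pooled ratios have exact 95% intervals for counting error only. The scripts were tested on simulated data. Figures were drawn with matplotlib 3.10.9, and promoters (250 bases before to 50 after the start) and the guide site were read from RefSeq's TAIR10.1, which matched 32835 loci. MORF2 and AT2G33440 were matched by identifier in the counts alone.

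Genes and the 41 lists were chosen with earlier results of these data known. Named were the MORF family and neighbours, the 12 SDEGs in each direction with the largest change at a mean of at least 5 CPM and no overlap between doses, the 6 most abundant in each direction, up to 4 members of each list in its main direction and 2 in the other, members needed to say that they did not pass, and the 5 genes in each direction for the low genes and for the difference of steps. Not all of these are described. PSBR, MYB28, GLK1, AOX1A, CRU3, RPL28A, the plastid loci and the low genes beyond those 5 were chosen after their values were seen. Alternatives were DESeq2 1.42.0 (Wald test or size factors), edgeR's exact test, other filters and thresholds, the compared libraries alone, a replicate block and leaving out each library. Scaling by library size alone and fitting nuclear loci alone were added after seeing the data.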

Additional observations from a re-analysis of the deposited data

How the results depend on the processing

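Every called result kept its direction under the alternatives run, and of 42 medians (all genes and 41 lists) 19 moved by more than the spread between replicates after scaling by library size alone. Without the filter on low counts the SDEGs numbered 922 higher and 1371 lower (516 and 883 as reported), and leaving out 1 library gave 351 to 379 higher and 578 to 766 lower; at an adjusted p below 0.05 the same step gave 3218 to 3266 higher and 3577 to 3679 lower. Of the 1399 SDEGs, 1351 were also called by the DESeq2 Wald test, 1266 after scaling by library size alone, which moved the median of all genes by 0.075 and the share of SDEGs that were higher to 46.4% (36.9% as reported), and 898 to 1038 without 1 library. Among the low genes (116 higher, 109 lower), the exact test called 275 higher and 229 lower, the compared libraries alone 180 higher, an adjusted p below 0.01 315 higher and 280 lower, and leaving out 1 library 23 to 73 higher and 39 to 65 lower. A second step above the first was called for 44 genes as reported, 138 with the Wald test, 94 with the compared libraries alone, 284 without the filter, 252 at an adjusted p below 0.01 and 1 to 30 without 1 library; a second step below it for 204, 358 with the Wald test, 796 without the filter, 654 at an adjusted p below 0.01 and 21 to 106 without 1 library. Among members counted in lists but not described, ETR2 (ethylene, 0.47 to 0.60), SAG14 (senescence, 0.37 to 0.58), PRR9 (clock, -1.03 to -0.66) and EXPA17 (expansins, 0.49 to 0.76) lost their calls whichever of the 4 libraries was left out. Log2FC of MORF2 lay between -1.04 and -0.94 without 1 library. The counts without a library rest on fewer samples, and otherwise the cause was not tested. With the replicate block 499 SDEGs were higher and 844 lower. The deviations of same-numbered libraries at the 2 doses correlated at 0.0801 across genes. A correlation over all genes cannot decide whether same-numbered libraries were handled together.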

Other observations

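Nitrate genes, a list made after the values were seen, were mixed, with 3 rising and 9 falling of 17 and a median Log2FC of -0.31. While NIA2 rose, the other nitrate reductase gene, NIA1, did not pass (0.20), and NIR1, the plastid nitrite reductase that acts next, fell (-0.96 ± 0.08). The high-affinity transporter NRT2.1 measured 2.29 and 1.57 CPM at 0.25 μM, against 17.7 and 11.7 CPM at 0.025 μM (Log2FC -2.93 ± 0.42, edgeR adjusted p = 5.06e-05), and NRT1.1, a transporter and nitrate sensor, had a Log2FC of -1.25 ± 0.09. GLN2, the plastid glutamine synthetase, fell (-0.99 ± 0.08), and GLN1;1, a cytosolic one, rose (0.50 ± 0.13).

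Families grouped by the stem of the symbol, also after the values were seen, included KCS genes, which elongate fatty acids for waxes and suberin, with 12 of 15 falling and 1 rising. Of 13 fasciclin-like arabinogalactan genes (FLA) 10 fell and none rose, and of 9 early nodulin-like genes (ENODL) 7 fell and none rose. Calcium-dependent protein kinases (CPK) had 9 of 18 rising and 1 falling, and syntaxins (SYP) 8 of 16 rising and 1 falling. Over all tested genes 24.1% rose and 26.4% fell.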
